A study of Homo sapiens with 32 samples.

Results

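The DNA replication machinery was followed as 41 genes in Kasumi-1 and SKNO-1 cells given inhibitors of the histone demethylase KDM1A (LSD1). The genes were taken by symbol from the authors' annotation of a table of 23073 genes, and all 41 had a value in every library and passed a filter on low values of at least 1 FPKM in at least 2 libraries. FPKM is fragments per kilobase of transcript scaled to the fragments mapped in the library, and 11890 genes passed the filter. Kasumi-1 and SKNO-1 are established human acute myeloid leukaemia lines, and both carry the t(8;21) translocation that fuses RUNX1 to RUNX1T1, so every group shares that fusion. Each line was given 0.1% DMSO, RN-1, GSK690 or GSK690* (each compound at 1 µM) for 24 or 72 h, with 2 libraries in each of the 16 groups, which the labels call biological replicates. RN-1 is an irreversible KDM1A inhibitor, GSK690 a reversible one, and GSK690* an isomer of GSK690 labelled as inactive. The later SKNO-1 libraries are titled 72 h, while the protocol for treatment states 4 days. The 2 inhibitors together (4 libraries) were compared with DMSO and GSK690* together (4 libraries, called controls below) in each of 4 sets, a set being 1 cell line at 1 time.

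Replication begins when the origin recognition complex, CDC6 and CDT1 load the MCM2 to MCM7 helicase onto DNA, and it starts in S phase when CDC45, the GINS complex and MCM10 turn that helicase on. DNA polymerase alpha with primase lays down primers, polymerases epsilon and delta extend the strands behind the PCNA clamp that the RFC complex loads, RPA covers single-stranded DNA, FEN1 and LIG1 join Okazaki fragments, ribonucleotide reductase and thymidylate synthase supply nucleotides, and CAF-1 puts histones on the new DNA. Many of these genes are known targets of E2F factors and are transcribed most around the entry into S phase, so their summed RNA is widely read as a mark of dividing cells. In bulk RNA, fewer cells in S phase and less RNA per cell cannot be told apart.

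No library stood apart from its group. FPKM summed to 332648 to 395945 per library, and the replicates of a group correlated at a Pearson r of 0.986 to 0.996 across genes. For all 16 of the 72 h libraries the authors' sample table names the other line, and grouping follows the label titles. By those titles, a library correlated with libraries of its own line at the other time at a mean r of 0.974 to 0.987, and with the other line at the other time at 0.848 to 0.876. The defining genes of the lines were present, with MPO at 1218 to 6612 FPKM, RUNX1 at 46.2 to 79.7 FPKM and RUNX1T1 at 21.2 to 53.5 FPKM. Of the markers of other lineages, 4 (KLRD1, MS4A1, HBB and COL1A2) stood at 0 in every library, and CD3D, CD3E, CD2, NCAM1, HBA1, ALAS2, COL1A1, KRT8 and KRT18 stayed below 1 FPKM. Others did not: the B cell genes CD79B and CD79A ranged over 4.49 to 61.1 FPKM and 0.789 to 3.03 FPKM, and CD8A of T cells over 0.186 to 2.04 FPKM. CD34, a progenitor marker, reached down to 0.117 FPKM in SKNO-1, and EPCAM, an epithelial marker, up to 83.5 FPKM in Kasumi-1.

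The replication genes were lower with the KDM1A inhibitors, most widely in Kasumi-1. At 24 h in Kasumi-1, 30 of the 41 fell and 0 rose by limma's test (adjusted p under 0.05 over all tested genes), where 11.2% of all tested genes were called lower and 9.69% higher. At 72 h in Kasumi-1, 28 fell and 0 rose, against 12.7% lower and 13.0% higher over all genes. In SKNO-1 fewer genes passed, with 10 lower and 0 higher at 24 h (3.44% and 5.64% of all genes) and 1 lower and 1 higher at 72 h (4.16% and 6.91%). At 72 h in SKNO-1 the share of the 41 that passed was therefore below that of all genes in both directions. These counts are not a test of a difference between the lines. The falls were of modest size. The median log2 change of the 41 on the log2(FPKM + 1) scale was -0.38 at 24 h and -0.30 at 72 h in Kasumi-1, and -0.22 and -0.13 in SKNO-1. The median of all tested genes lay between -0.01 and -0.02 in the 4 sets. The sign was negative for 40, 38, 38 and 36 of the 41 in that order, whether or not a gene passed. Over all tested genes it was negative for 53.3%, 53.3%, 55.1% and 55.4%. All 4 inhibitor libraries lay below all 4 controls for 31 of the 41 in Kasumi-1 at 24 h, 26 at 72 h, 20 in SKNO-1 at 24 h and 7 at 72 h, where 18.2%, 13.0%, 8.37% and 6.67% of all genes did so.

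**Figure D1:**
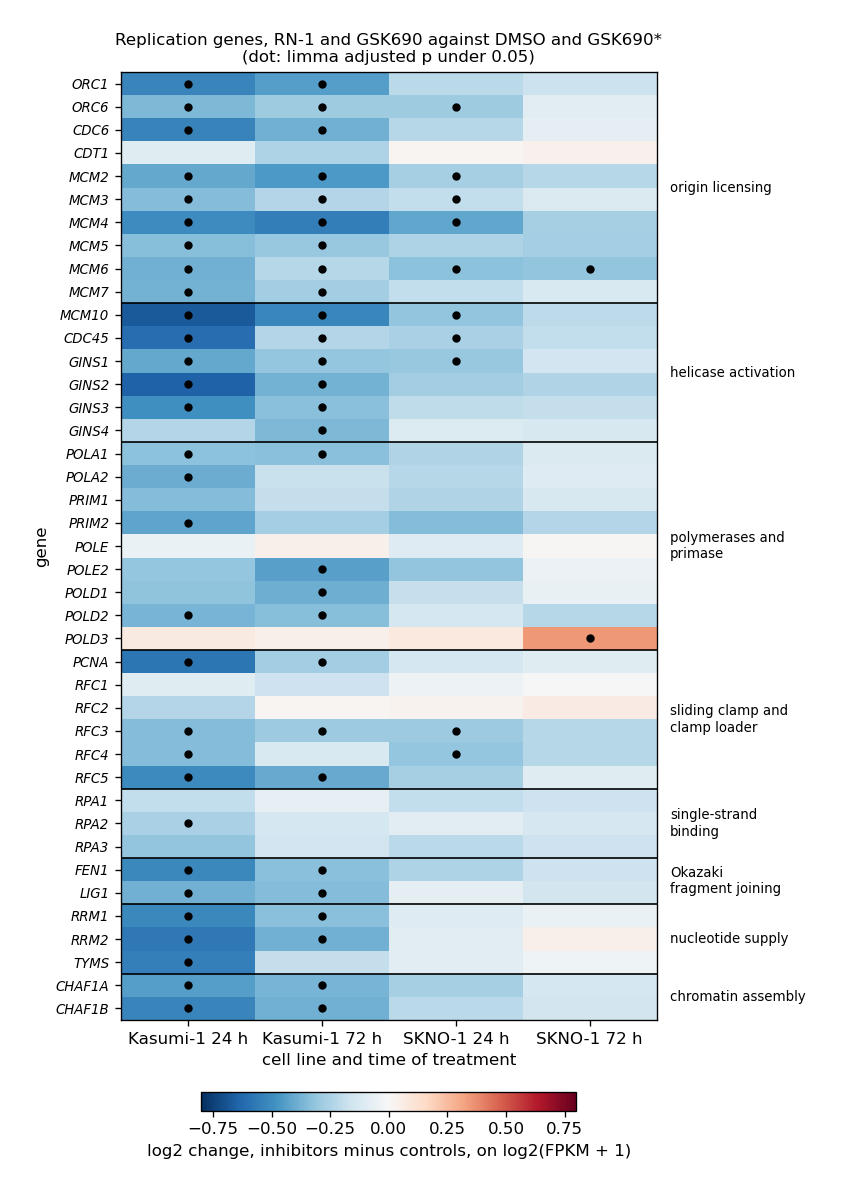
Log2 change of each of the 41 replication genes (rows, grouped by role) with RN-1 and GSK690 against DMSO and GSK690*, on the log2(FPKM + 1) scale, in the 4 sets of cell line and time (columns, n = 4 against 4 libraries). Blue is lower and red is higher with the inhibitors, and a dot marks an adjusted p under 0.05. The 30 and 28 dots in the Kasumi-1 columns against 10 and 2 in the SKNO-1 columns show where the calls lie, and POLD3 in SKNO-1 at 72 h is the single red call.

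The share of all FPKM that the 41 genes held in a library was also lower. It was 0.457 to 0.521% in the controls and 0.355 to 0.394% with the inhibitors in Kasumi-1 at 24 h. The values at 72 h were 0.590 to 0.610% and 0.472 to 0.509%. SKNO-1 at 24 h had 0.541 to 0.566% and 0.466 to 0.484%. The ranges did not overlap in those 3 sets. SKNO-1 at 72 h had 0.579 to 0.634% in the controls and 0.544 to 0.593% with the inhibitors, which overlap. Its libraries numbered 1 were higher than those numbered 2 on both sides, at 0.632 to 0.634% against 0.588 to 0.593% for number 1 and 0.579 to 0.584% against 0.544 to 0.550% for number 2. Within each number, both inhibitors were below both controls.

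**Figure D2:**
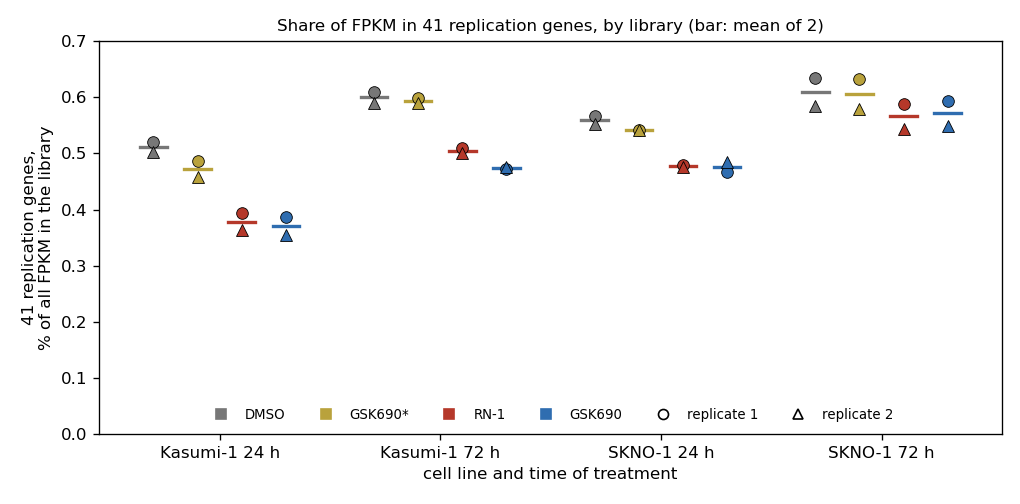
Percent of all FPKM held by the 41 replication genes in each of the 32 libraries (points; circles replicate 1, triangles replicate 2), by set and agent, with a bar at the mean of 2 libraries and the axis starting at 0. The inhibitor libraries (red, blue) lie below the controls (grey, yellow) without overlap in 3 sets, and in SKNO-1 at 72 h the ranges of 0.579 to 0.634% and 0.544 to 0.593% overlap.

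Most of the genes moved in the same direction, so their promoters were read from RefSeq (GRCh38.p14). The windows were 300 bases, from 250 before to 50 after the transcription start. They were searched for the letters that E2F factors are known to bind (TTTCCCGC, TTTCGCGC, TTTGCCGC or TTTGGCGC on either strand) and for the CCAAT box that NF-Y binds (either strand). Promoters were found for 35 of the 41 genes (43 promoters). The E2F letters were in 17 of these (39.5%), in 3.31% of all 35116 promoters and in 4.97% of the 13107 promoters of tested genes. CCAAT was in 26 of 43 (60.5%), in 34.6% of all promoters and in 34.8% of those of tested genes. Genes with the E2F letters had a median log2 change of -0.39 in Kasumi-1 at 24 h, with 14 of 17 lower. Those without had -0.43 and 13 of 18. The search takes exact letters in these windows alone, so whether E2F sites go with the change was not tested.

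The 250 bases before the start are shown for 4 genes the results turn on, 5′ to 3′ on the gene's strand, with E2F letters and CCAAT boxes in capitals. MCM6 (chr2:135876444-135876693, minus strand) was the only gene lower in all 4 sets, and its 2 runs of 12 capitals each hold TTTGGCGC overlapping TTTCGCGC on the other strand, beginning at positions -152 and -90 from the start. GINS2 (chr16:85688955-85689204, minus strand) and MCM10 (chr10:13161308-13161557, plus strand) had the largest falls in Kasumi-1 at 24 h, and MCM10 has CCAAT boxes but none of the E2F letters. PCNA (chr20:5126623-5126872, minus strand) was the only gene whose change differed between the lines by the test. These matches describe letters and are not measured binding sites.
MCM6: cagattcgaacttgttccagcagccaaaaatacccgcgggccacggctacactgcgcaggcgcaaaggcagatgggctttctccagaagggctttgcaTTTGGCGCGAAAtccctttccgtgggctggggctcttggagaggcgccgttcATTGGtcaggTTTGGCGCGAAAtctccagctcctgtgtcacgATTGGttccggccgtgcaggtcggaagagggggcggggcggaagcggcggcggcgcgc
GINS2: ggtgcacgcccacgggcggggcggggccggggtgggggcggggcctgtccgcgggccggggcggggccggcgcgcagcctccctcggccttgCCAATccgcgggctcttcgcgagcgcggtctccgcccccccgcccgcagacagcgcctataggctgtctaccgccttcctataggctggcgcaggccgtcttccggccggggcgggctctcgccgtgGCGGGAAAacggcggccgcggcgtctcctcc
MCM10: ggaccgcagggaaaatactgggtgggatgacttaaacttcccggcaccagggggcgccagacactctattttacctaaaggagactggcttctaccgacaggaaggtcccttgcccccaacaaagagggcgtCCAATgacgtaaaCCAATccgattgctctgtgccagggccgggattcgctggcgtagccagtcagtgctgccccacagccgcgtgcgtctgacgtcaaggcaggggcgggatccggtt
PCNA: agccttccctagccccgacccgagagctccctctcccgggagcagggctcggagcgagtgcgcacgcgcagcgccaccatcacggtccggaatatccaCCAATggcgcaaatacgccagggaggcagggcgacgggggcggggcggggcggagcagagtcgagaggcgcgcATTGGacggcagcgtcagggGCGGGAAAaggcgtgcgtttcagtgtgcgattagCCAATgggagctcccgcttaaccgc

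Of the origin licensing genes, 9 of 10 were lower in Kasumi-1 at both times, 5 in SKNO-1 at 24 h and 1 at 72 h. MCM6 (ENSG00000076003, chromosome 2, 136597195 to 136633996, hg19), a helicase subunit, passed in every set. In Kasumi-1 at 24 h it stood at 80.4 and 70.98 FPKM with DMSO, 77.6 and 68.1 with GSK690*, 63.2 and 52.2 with RN-1 and 59.8 and 51.5 with GSK690. All 4 inhibitor libraries were below the lowest control, and the log2 change was -0.39 ± 0.08 (SE; adjusted p = 0.00163). At 72 h its values in that line were 87.7 and 78.9 FPKM with DMSO, 83.3 and 81.2 with GSK690*, 75.1 and 72.9 with RN-1 and 67.8 and 66.3 with GSK690, again without overlap, with a change of -0.23 ± 0.08 (SE; adjusted p = 0.0376). SKNO-1 at 24 h had 49.7 and 48.7 FPKM with DMSO, 47.7 and 48.3 with GSK690*, 35.1 and 37.8 with RN-1 and 36.3 and 45.5 with GSK690. The GSK690 library numbered 2 came nearest to the controls there, the groups still did not overlap, and the change was -0.33 ± 0.08 (SE; adjusted p = 0.0111). SKNO-1 at 72 h had 64.9 and 56.5 FPKM with DMSO, 59.8 and 58.05 with GSK690*, 51.5 and 44.5 with RN-1 and 47.7 and 47.3 with GSK690, with every inhibitor library below every control and a change of -0.32 ± 0.08 (SE; adjusted p = 0.0108). The direction held in each fit without 1 library of a set, but the call did not. In Kasumi-1 at 72 h it was lost without DMSO replicate 1, either RN-1 library, either GSK690* library or either GSK690 library (adjusted p from 0.0570 to 0.151). In SKNO-1 it was lost at 24 h without RN-1 replicate 1 or GSK690 replicate 1 (adjusted p from 0.0663 to 0.110) and in a fit on the 8 libraries of the set (adjusted p = 0.0944). At 72 h it was lost without DMSO replicate 1 or RN-1 replicate 2 (adjusted p = 0.0679) and in a fit on the 8 libraries of the set (adjusted p = 0.0869).

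MCM4, another subunit of the same helicase, had the largest fall of all 41 genes in Kasumi-1 at 72 h and in SKNO-1 at 24 h. In Kasumi-1 at 72 h it stood at 116 and 109.9 FPKM with DMSO, 126 and 114 with GSK690*, 71.4 and 81.7 with RN-1 and 83.8 and 79.5 with GSK690. The controls lay well above the inhibitor libraries, with a log2 change of -0.55 ± 0.09 (SE; adjusted p = 1.07e-04). SKNO-1 at 24 h gave 118 and 110.4 FPKM with DMSO, 122 and 108 with GSK690*, 77.03 and 93.8 with RN-1 and 77.1 and 95.8 with GSK690, without overlap, and a change of -0.42 ± 0.09 (SE; adjusted p = 0.00550). In Kasumi-1 at 24 h MCM4 changed by -0.50 ± 0.09 (SE; adjusted p = 4.82e-04), and at 72 h in SKNO-1 its change of -0.26 did not pass (adjusted p = 0.0626). The call in SKNO-1 at 24 h was lost without RN-1 replicate 1 or GSK690 replicate 1 (adjusted p from 0.0518 to 0.0586) and in a fit on the 8 libraries of the set (adjusted p = 0.0970).

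MCM2 (ENSG00000073111, chromosome 3, 127317065 to 127341276, hg19), the subunit that also binds histones, fell in 3 sets. Its values in Kasumi-1 at 24 h were 78.03 and 68.4 FPKM with DMSO, 62.8 and 64.8 with GSK690*, 52.8 and 51.5 with RN-1 and 52.7 and 48.1 with GSK690, and the groups did not overlap (log2 change -0.41 ± 0.08 (SE; adjusted p = 8.39e-04)). At 72 h they were 94.1 and 91.5 FPKM with DMSO, 87.5 and 94.5 with GSK690*, 74.1 and 64.4 with RN-1 and 64.4 and 63.9 with GSK690, further apart, with a change of -0.46 ± 0.08 (SE; adjusted p = 1.67e-04). SKNO-1 at 24 h had 63.3 and 60.1 FPKM with DMSO, 62.5 and 53.9 with GSK690*, 53.1 and 47.4 with RN-1 and 45.6 and 52.5 with GSK690. The gap there was narrow but without overlap, and the change was -0.27 ± 0.08 (SE; adjusted p = 0.0336). SKNO-1 at 72 h had 81.4 and 85.6 FPKM with DMSO, 94.2 and 74.4 with GSK690*, 74.3 and 70.3 with RN-1 and 75.3 and 65.4 with GSK690, where the groups overlapped and the change of -0.23 did not pass (adjusted p = 0.0611, 95% interval -0.39 to -0.07). The call in SKNO-1 at 24 h was lost without either DMSO library, either RN-1 library, GSK690* replicate 1 or GSK690 replicate 1 (adjusted p from 0.0518 to 0.199) and in a fit on the 8 libraries of the set (adjusted p = 0.123). A call at 72 h was gained without GSK690 replicate 1 or GSK690* replicate 2 (adjusted p = 0.0455 and 0.0111).

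CDC6 (ENSG00000094804, chromosome 17, 38443884 to 38459171, hg19), the ATPase that brings the helicase to the origin, fell in Kasumi-1 alone by the test of each set. It stood there at 26.8 and 27.9 FPKM with DMSO, 28.00 and 25.2 with GSK690*, 19.9 and 16.5 with RN-1 and 19.9 and 17.2 with GSK690 at 24 h, with the inhibitor libraries all lower and a log2 change of -0.53 ± 0.09 (SE; adjusted p = 2.81e-04). At 72 h it had 32.2 and 27.6 FPKM with DMSO, 31.1 and 26.7 with GSK690*, 22.3 and 23.2 with RN-1 and 22.04 and 21.2 with GSK690, without overlap, and the change was -0.39 ± 0.09 (SE; adjusted p = 0.00310). In SKNO-1 at 24 h CDC6 stood at 34.2 and 31.9 FPKM with DMSO, 34.3 and 29.2 with GSK690*, 29.7 and 22.7 with RN-1 and 31.02 and 27.2 with GSK690. At 72 h in SKNO-1 it stood at 36.6 and 31.01 FPKM with DMSO, 35.3 and 33.7 with GSK690*, 33.9 and 30.3 with RN-1 and 32.1 and 32.98 with GSK690. The groups overlapped at both times, and the changes of -0.23 (95% interval -0.41 to -0.04) and -0.08 (-0.26 to 0.11) did not pass. Of the other licensing genes, ORC1, the largest subunit of the origin recognition complex, changed by -0.53 and -0.44 in Kasumi-1, and ORC6, its smallest, by -0.36 and -0.29, with -0.29 in SKNO-1 at 24 h. MCM3, MCM5 and MCM7 fell in Kasumi-1 by log2 changes from -0.38 to -0.24 over both times, and MCM3 also fell in SKNO-1 at 24 h (-0.20). CDT1, which loads the helicase and is destroyed in S phase, passed nowhere, with changes of -0.10, -0.25, 0.01 and 0.03 in the order of the sets and 95% intervals that reach from -0.60 to 0.38.

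Helicase activation held the largest single falls. MCM10 (ENSG00000065328, chromosome 10, 13203553 to 13253104, hg19), which turns on the loaded helicase, stood at 28.4 and 26.6 FPKM with DMSO, 28.97 and 22.9 with GSK690*, 18.3 and 15.1 with RN-1 and 16.8 and 15.4 with GSK690 in Kasumi-1 at 24 h. The lowest control lay clearly above the highest inhibitor library, and the log2 change of -0.67 ± 0.09 (SE; adjusted p = 1.59e-05) was the largest among the 41. GINS2 (ENSG00000131153, chromosome 16, 85709803 to 85723679, hg19), a subunit of the GINS complex, had 12.8 and 11.99 FPKM with DMSO, 13.4 and 11.9 with GSK690*, 8.45 and 7.58 with RN-1 and 8.07 and 6.57 with GSK690 in the same set, without overlap, and changed by -0.65 ± 0.10 (SE; adjusted p = 6.35e-05). CDC45 (ENSG00000093009, chromosome 22, 19466981 to 19508135, hg19), the third part of the active helicase, had 32.9 and 28.02 FPKM with DMSO, 28.4 and 25.5 with GSK690*, 19.1 and 17.7 with RN-1 and 20.4 and 16.7 with GSK690 there and changed by -0.61 ± 0.08 (SE; adjusted p = 1.77e-05). All 3 were low in each of the 4 inhibitor libraries.

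At 72 h in Kasumi-1 MCM10 stood at 34.95 and 28.6 FPKM with DMSO, 32.2 and 30.3 with GSK690*, 21.01 and 23.7 with RN-1 and 20.8 and 21.1 with GSK690. The groups stayed apart, with a log2 change of -0.52 ± 0.09 (SE; adjusted p = 1.61e-04). GINS2 and CDC45 fell there too, by -0.38 and -0.23, but with overlapping groups. The call of CDC45 was lost without either DMSO library, either GSK690* library, either GSK690 library or RN-1 replicate 2 (adjusted p from 0.0606 to 0.174) and in a fit on the 8 libraries of the set (adjusted p = 0.0684). SKNO-1 at 24 h had MCM10 at 15.8 and 13.8 FPKM with DMSO, 14.95 and 14.5 with GSK690*, 10.5 and 11.4 with RN-1 and 11.7 and 13.1 with GSK690. No inhibitor library reached a control, and the change was -0.32 ± 0.09 (SE; adjusted p = 0.0262). The call was lost without DMSO replicate 1, RN-1 replicate 1, either GSK690* library or GSK690 replicate 1 (adjusted p from 0.0677 to 0.141) and in a fit on the 8 libraries of the set (adjusted p = 0.0944). GINS1 passed in the same 3 sets as MCM10 and CDC45 (-0.41, -0.31 and -0.30), GINS3 in Kasumi-1 at both times (-0.49 and -0.33), and GINS4 in Kasumi-1 at 72 h (-0.36). In SKNO-1 at 72 h 0 of the 6 passed, with log2 changes from -0.24 to -0.13.

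**Figure D3:**
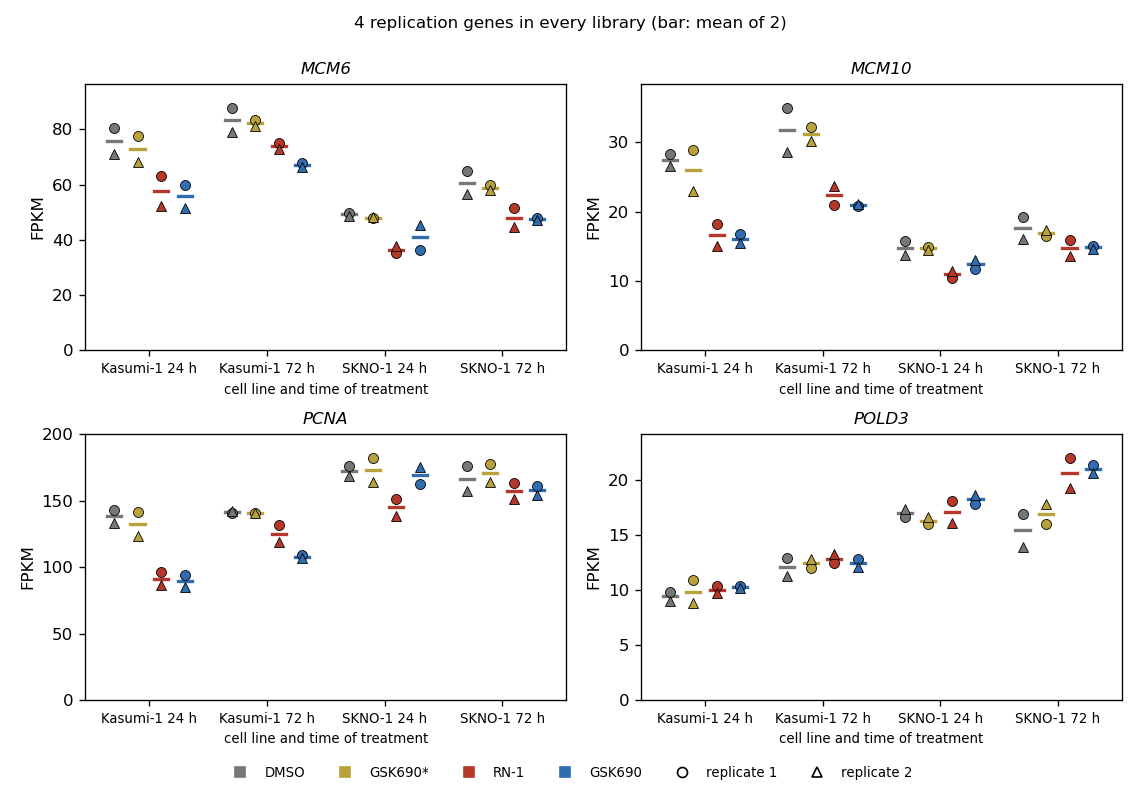
FPKM of MCM6, MCM10, PCNA and POLD3 in each of the 32 libraries (points; circles replicate 1, triangles replicate 2), by set and agent, with a bar at the mean of 2 libraries and each axis starting at 0. MCM6 lies lower with the inhibitors (red, blue) in every set, PCNA by most in Kasumi-1 at 24 h, and POLD3 lies higher in SKNO-1 at 72 h.

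Polymerase and primase genes moved less evenly, with 4 of 9 lower in Kasumi-1 at 24 h, 4 at 72 h, and 0 in SKNO-1 at either time. POLA1 (ENSG00000101868, chromosome X, 24712035 to 25015103, hg19), the catalytic subunit of polymerase alpha, stood at 12.2 and 11.2 FPKM with DMSO, 12.5 and 10.97 with GSK690*, 10.2 and 8.38 with RN-1 and 9.40 and 8.59 with GSK690 in Kasumi-1 at 24 h and changed by -0.33 ± 0.10 (SE; adjusted p = 0.0207). At 72 h it had 15.8 and 13.8 FPKM with DMSO, 14.5 and 13.5 with GSK690*, 10.3 and 11.9 with RN-1 and 11.5 and 11.00 with GSK690 and changed by -0.34 ± 0.10 (SE; adjusted p = 0.0146). The groups did not overlap at either time, but the call at 24 h was lost without DMSO replicate 1, GSK690* replicate 1, RN-1 replicate 2 or GSK690 replicate 2 (adjusted p from 0.0829 to 0.113). The call at 72 h was lost without DMSO replicate 1, RN-1 replicate 1, GSK690* replicate 1 or GSK690 replicate 2 (adjusted p from 0.0515 to 0.0763). In SKNO-1 POLA1 had 9.49 and 10.3 FPKM with DMSO, 10.4 and 11.01 with GSK690*, 8.33 and 9.08 with RN-1 and 7.67 and 9.19 with GSK690 at 24 h, where the groups did not overlap but the change of -0.24 did not pass (adjusted p = 0.131). At 72 h in SKNO-1 it had 14.8 and 10.9 FPKM with DMSO, 12.2 and 11.96 with GSK690*, 13.3 and 9.87 with RN-1 and 11.8 and 10.8 with GSK690, with overlap (log2 change -0.12, 95% interval -0.32 to 0.09).

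POLA2 and PRIM2, the partner subunits in the polymerase alpha and primase complex, fell in Kasumi-1 at 24 h (-0.40 and -0.42), and POLE2 and POLD1 fell at 72 h (-0.43 and -0.39). POLD2, an accessory subunit of polymerase delta, fell at both times (-0.37 and -0.34). PRIM1, the catalytic primase subunit, passed in none of the sets, with changes from -0.35 to -0.13. POLE, the catalytic subunit of polymerase epsilon, changed by -0.10 to 0.04 in the 4 sets, with 95% intervals between -0.25 and 0.19. POLD3 (ENSG00000077514, chromosome 11, 74204895 to 74380162, hg19) went the other way. It is another subunit of polymerase delta and also serves repair and break-induced synthesis. In SKNO-1 at 72 h it was the 1 gene of the 41 called higher, where 6.91% of all genes were called higher. In SKNO-1 at 72 h it stood at 16.9 and 13.9 FPKM with DMSO, 15.96 and 17.8 with GSK690*, 22.00 and 19.2 with RN-1 and 21.4 and 20.7 with GSK690. Every inhibitor library was above every control, with a log2 change of 0.35 ± 0.08 (SE; adjusted p = 0.00397), while its changes in the other sets (0.07, 0.04 and 0.08) did not pass. POLD3 kept its call in each of the 8 fits without 1 library of the set, and lost it in a fit on the 8 libraries of the set alone (adjusted p = 0.114).

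Of the sliding clamp and its loader, 4 of 6 genes were lower in Kasumi-1 at 24 h, 3 at 72 h, 2 in SKNO-1 at 24 h and 0 at 72 h. PCNA (ENSG00000132646, chromosome 20, 5095598 to 5107272, hg19), the clamp that holds polymerases on DNA, stood at 143 and 133 FPKM with DMSO, 142 and 124 with GSK690*, 96.3 and 86.4 with RN-1 and 93.97 and 85.04 with GSK690 in Kasumi-1 at 24 h. The inhibitor libraries lay far below the controls, with a log2 change of -0.58 ± 0.06 (SE; adjusted p = 1.25e-06), the smallest p of the 41 genes in that set. At 72 h it had 141 and 143 FPKM with DMSO, 141 and 141 with GSK690*, 131 and 118.97 with RN-1 and 109 and 107 with GSK690. The fall with GSK690 was the deeper one there, the groups did not overlap, and the change was -0.28 ± 0.06 (SE; adjusted p = 0.00245). SKNO-1 at 24 h had PCNA at 176 and 169 FPKM with DMSO, 182 and 164 with GSK690*, 151 and 139 with RN-1 and 163 and 175 with GSK690. SKNO-1 at 72 h had it at 176 and 157 FPKM with DMSO, 178 and 164 with GSK690*, 164 and 151 with RN-1 and 161 and 155 with GSK690. The groups overlapped at both times, and the changes of -0.14 (95% interval -0.27 to -0.01) and -0.10 (-0.23 to 0.03) did not pass. Among the loader subunits RFC3 fell in 3 sets (-0.35, -0.29 and -0.29), and RFC5 fell in Kasumi-1 at both times (-0.51 and -0.40). RFC4 fell at 24 h in both lines (-0.35 in Kasumi-1 and -0.31 in SKNO-1). RFC1, the large subunit, and RFC2 passed in none of the sets, with changes from -0.24 to 0.06 for RFC2 and from -0.16 to 0.00 for RFC1.

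RPA, the single-strand binding complex, had the fewest calls, with RPA2 alone lower in Kasumi-1 at 24 h (47.9 ± 3.66 FPKM in the controls and 39.7 ± 1.25 FPKM with the inhibitors (SD, n = 4 each), log2 change -0.26). RPA1 and RPA3 did not pass in any set, and their changes were all negative, from -0.31 to -0.06. Both genes of Okazaki fragment joining fell in Kasumi-1 at both times. FEN1, the flap nuclease, had 41.7 ± 3.72 FPKM in the controls and 28.8 ± 1.31 FPKM with the inhibitors (SD, n = 4 each) at 24 h (log2 change -0.52), and LIG1, the ligase, had 40.00 ± 1.91 FPKM in the controls and 30.5 ± 3.04 FPKM with the inhibitors (SD, n = 4 each) (log2 change -0.38). Neither passed in SKNO-1, where FEN1 changed by -0.25 and -0.16 and LIG1 by -0.07 and -0.15. The CAF-1 subunits CHAF1A and CHAF1B, which place histones H3 and H4 behind the fork, followed the same pattern, with -0.44 and -0.53 in Kasumi-1 at 24 h, -0.37 and -0.39 at 72 h, and no call in SKNO-1.

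Nucleotide supply fell in Kasumi-1, by all 3 genes at 24 h and 2 at 72 h, and by 0 in SKNO-1. RRM2 (ENSG00000171848, chromosome 2, 10262454 to 10271545, hg19), the regulated subunit of ribonucleotide reductase, stood at 50.9 and 42.3 FPKM with DMSO, 40.3 and 37.8 with GSK690*, 30.7 and 28.1 with RN-1 and 32.8 and 22.7 with GSK690 in Kasumi-1 at 24 h, without overlap (log2 change -0.57 ± 0.11 (SE; adjusted p = 8.23e-04)). At 72 h it had 58.4 and 53.2 FPKM with DMSO, 59.9 and 56.7 with GSK690*, 43.2 and 47.2 with RN-1 and 41.2 and 42.1 with GSK690 and changed by -0.39 ± 0.11 (SE; adjusted p = 0.0116). That call did not hold without DMSO replicate 1 (adjusted p = 0.0538). In SKNO-1 at 24 h RRM2 stood at 61.2 and 53.1 FPKM with DMSO, 56.00 and 45.5 with GSK690*, 58.5 and 44.8 with RN-1 and 52.05 and 48.1 with GSK690. At 72 h it stood there at 73.2 and 65.7 FPKM with DMSO, 79.04 and 69.9 with GSK690*, 74.7 and 68.9 with RN-1 and 86.2 and 66.8 with GSK690. The groups overlapped at both times and the changes were -0.08 (95% interval -0.31 to 0.14) and 0.04 (-0.19 to 0.26). The sign in SKNO-1 turned with single libraries, to 0.01 at 24 h without RN-1 replicate 2 and to -0.05 at 72 h without GSK690 replicate 1. RRM1, the other subunit, fell in Kasumi-1 at both times (-0.51 and -0.34), and TYMS, which makes thymidylate, fell at 24 h (-0.55) with -0.19 at 72 h, which did not pass.

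Across sets, MCM6 was lower in 4, 8 genes in 3 (ORC6, MCM2, MCM3, MCM4, MCM10, CDC45, GINS1 and RFC3), 17 in 2 and 7 in 1, and 8 in none (CDT1, PRIM1, POLE, POLD3, RFC1, RFC2, RPA1 and RPA3). Apart from RFC3, those lower in 3 sets belong to licensing and helicase activation, a difference between roles that was not tested. In Kasumi-1, 25 genes were lower at both times, 5 passed at 24 h alone and 3 at 72 h alone. The same counts over several sets are not given here for all genes. They can therefore not be read as particular to the replication genes. Leaving out 1 of the 8 libraries in Kasumi-1 gave 25 to 32 genes lower at 24 h and 19 to 28 at 72 h. The SKNO-1 counts moved when 1 library was left out. Such a fit leaves 1 library in a group, and the calls kept or lost over all genes are not given here. The calls lost can therefore not be read as particular to the replication genes or to a line. At 24 h the 10 became 2 without DMSO replicate 1 and 4 without DMSO replicate 2. They became 5 and 3 without GSK690* replicate 1 or 2, 2 without RN-1 replicate 1 and 0 without GSK690 replicate 1. A fit on the 8 libraries of the set alone called 0. At 72 h the 1 became 0 without DMSO replicate 1 or RN-1 replicate 2, 4 without DMSO replicate 2 or RN-1 replicate 1, 3 without GSK690 replicate 1 and 7 without GSK690* replicate 2. None of the 10 calls in SKNO-1 at 24 h held in every fit without 1 library, beside 25 of 30 in Kasumi-1 at 24 h (all but MCM5, POLA1, PRIM2, RFC3 and RPA2) and 18 of 28 at 72 h (all but CDC45, GINS1, GINS3, GINS4, MCM5, MCM6, POLA1, POLD1, RFC3 and RRM2).

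Each inhibitor was also set against its own control, RN-1 against DMSO and GSK690 against its isomer GSK690*. Each compares 2 with 2 libraries, and the comparisons share none. With RN-1, 26 of the 41 genes were lower in Kasumi-1 at 24 h (3.61% of all genes) and 4 at 72 h (4.61%), and 1, MCM6, in SKNO-1 at 24 h (0.429%). In SKNO-1 at 72 h 0 were lower (0.53% of all genes; 5 of the 41 at an unadjusted p under 0.05) and POLD3 was higher. With GSK690 against GSK690*, 15 were lower in Kasumi-1 at 24 h (1.42%) and 14 at 72 h (3.73%). In SKNO-1 limma called 0 at 24 h (0.109% of all genes) and 0 at 72 h (0.303%), where 8 and 5 of the 41 had an unadjusted p under 0.05. MCM10 in Kasumi-1 at 24 h changed by -0.69 ± 0.12 (SE; adjusted p = 0.00111) with RN-1 and by -0.65 ± 0.12 (SE; adjusted p = 0.00341) with GSK690. PCNA changed there by -0.59 ± 0.09 (SE; adjusted p = 1.74e-04) and -0.56 ± 0.09 (SE; adjusted p = 6.10e-04). At 72 h PCNA gave -0.18 ± 0.09 (SE; adjusted p = 0.205) with RN-1 and -0.38 ± 0.09 (SE; adjusted p = 0.00870) with GSK690. Both comparisons were negative for 38, 36, 36 and 32 of the 41 genes in the order of the sets, where 41.6%, 39.9%, 41.1% and 43.2% of all genes were negative in both. The RN-1 count of 26 became 3 without DMSO replicate 1, 4 without RN-1 replicate 2 and 17 without DMSO replicate 2. The GSK690 counts became 1 without GSK690* replicate 1 or GSK690 replicate 2 at either time, 9 without the other library of each group at 24 h, and 8 and 5 at 72 h without GSK690 replicate 1 or GSK690* replicate 2. MCM6 lost its RN-1 call in SKNO-1 at 24 h without either DMSO library, either RN-1 library or either GSK690* library (adjusted p from 0.0522 to 0.401) and in a fit on the 8 libraries of the set (adjusted p = 0.233). POLD3 lost that at 72 h without either RN-1 library or DMSO replicate 2 (adjusted p from 0.0605 to 0.261) and in a fit on the 8 libraries of the set (adjusted p = 0.358). The RN-1 count of 4 at 72 h in Kasumi-1 became 0 without DMSO replicate 1 and 2 without either RN-1 library.

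**Figure D4:**
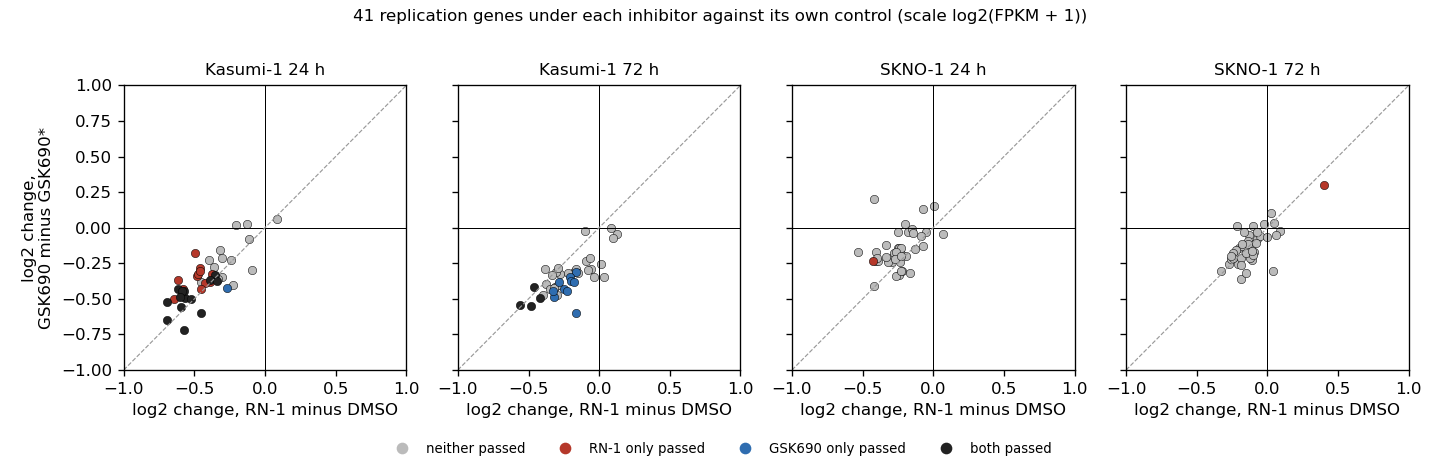
Log2 change of each of the 41 replication genes with RN-1 against DMSO (x axis) and with GSK690 against GSK690* (y axis), on the log2(FPKM + 1) scale, in the 4 sets; each axis compares 2 with 2 libraries and the axes share none. Colours give which comparisons passed an adjusted p of 0.05, and the dashed line marks equal change. In Kasumi-1 38 and 36 of the 41 points lie at the lower left, and POLD3 in SKNO-1 at 72 h, with RN-1, is the only point called higher on either axis.

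GSK690 and GSK690* differ as isomers, and their difference in these genes is the GSK690 contrast given above. The isomer itself was not distinguished from DMSO. limma called 0 of the 41 genes for GSK690* against DMSO in each of the 4 sets, and 0.0% of all genes, with 1, 0, 0 and 0 of the 41 at an unadjusted p under 0.05 in the order of the sets. The log2 differences ran from -0.25 to 0.07 in Kasumi-1 at 24 h, -0.14 to 0.08 at 72 h, -0.30 to 0.11 in SKNO-1 at 24 h and -0.20 to 0.28 at 72 h. The intervals are wide, reaching -0.71 and 0.72 over all genes and sets, so changes of the size seen with the inhibitors lie inside the intervals of some genes. In Kasumi-1 at 24 h 35 of the 41 were lower with GSK690* than with DMSO (median log2 difference -0.10), beside 30, 25 and 19 in the other sets (medians -0.02, -0.02 and 0.00). Over all genes 48.4%, 56.5%, 53.1% and 47.4% were lower, in the order of the sets.

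RN-1 and GSK690 did not differ by the test in any of the 41 genes. limma called 0 in each set for RN-1 against GSK690 at the same dose and time, where 0.0%, 0.00841%, 0.0% and 0.0% of all genes were called, and 0, 3, 4 and 0 of the 41 had an unadjusted p under 0.05. The log2 differences ran from -0.12 to 0.20 in Kasumi-1 at 24 h, from -0.13 to 0.41 at 72 h, from -0.40 to 0.27 in SKNO-1 at 24 h and from -0.21 to 0.20 at 72 h. At 72 h in Kasumi-1 38 of the 41 were higher with RN-1 than with GSK690, at a median of 0.14, where the median of all genes was 0.04. PCNA differed there by 0.21 (95% interval 0.03 to 0.40, adjusted p = 0.676). These comparisons of 2 with 2 libraries do not show that the inhibitors act alike.

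Without an active inhibitor the lines already differed in many replication genes. Of the 41, 16 were lower and 9 higher in Kasumi-1 than in SKNO-1 at 24 h, where 69.1% of all genes differed, and 15 were lower and 13 higher at 72 h, where 70.8% did. The share of the 41 that passed was therefore below that of all genes at 24 h and near it at 72 h. Of these, 23 passed at both times, all in the same direction (15 lower, 8 higher in Kasumi-1). The share of all genes that did so is not given here, so this count cannot be read as particular to the replication genes. RFC3, a clamp loader subunit, differed most, at 15.4 ± 1.58 FPKM in Kasumi-1 and 40.96 ± 0.548 FPKM in SKNO-1 (SD, n = 4 each) at 24 h, a log2 difference of -1.36 ± 0.08 (SE). RRM1 was at the other end, at 51.4 ± 4.94 FPKM in Kasumi-1 and 26.6 ± 1.32 FPKM in SKNO-1 (log2 difference 0.92 ± 0.08). POLE2 and RPA3 were also lower in Kasumi-1 (log2 -0.92 ± 0.11 and -0.87 ± 0.18), and MCM10 and MCM6 higher (0.81 ± 0.09 and 0.60 ± 0.08). At 72 h RFC3 stood at 16.9 ± 1.32 FPKM in Kasumi-1 and 40.7 ± 4.32 FPKM in SKNO-1 and RRM1 at 59.7 ± 3.53 FPKM in Kasumi-1 and 32.7 ± 1.54 FPKM in SKNO-1, in the same order. Medium and serum differ between the lines per the labels, so line and culture cannot be told apart.

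**Figure D5:**
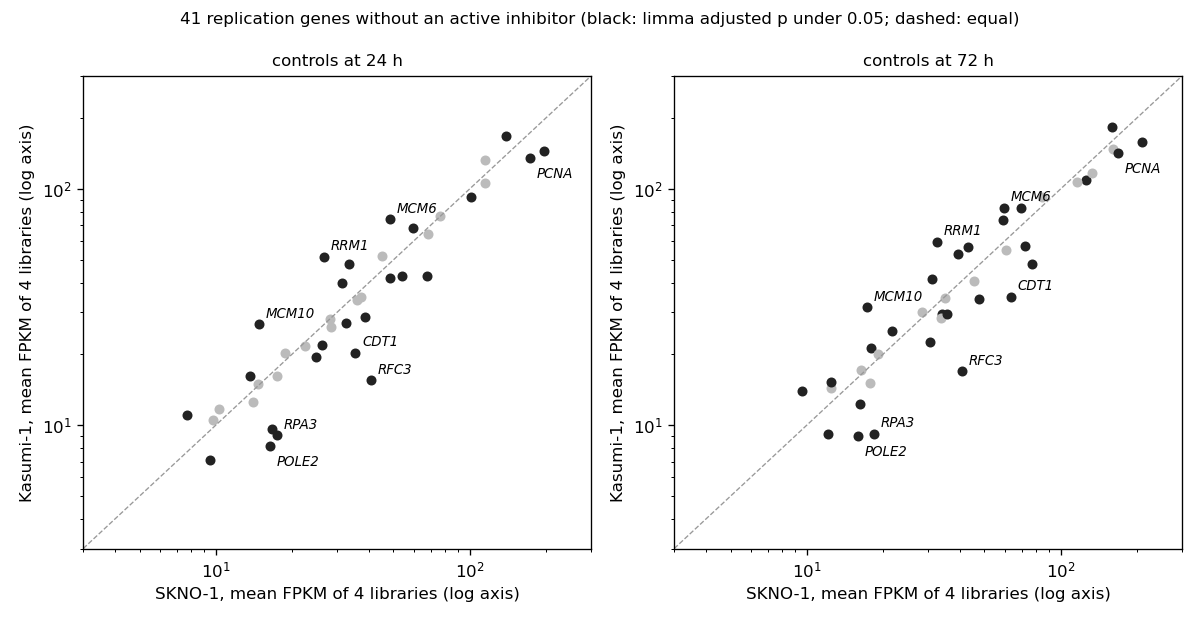
Mean FPKM of each of the 41 replication genes in the 4 control libraries (DMSO and GSK690*) of SKNO-1 (x axis) and Kasumi-1 (y axis) at 24 and 72 h, both on log axes, with black points for an adjusted p under 0.05 and a dashed line at equal levels. Points lie on both sides of the line, 16 called lower and 9 higher in Kasumi-1 at 24 h, with RFC3 farthest below and RRM1 farthest above it.

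The change with the inhibitors was compared between the lines and between the times as a difference of differences. Between lines at 24 h PCNA alone of the 41 passed (1.12% of all genes did), with a difference of -0.43 ± 0.09 (SE) on the log2 scale (Kasumi-1 minus SKNO-1) (95% interval -0.62 to -0.25, adjusted p = 0.0137). The call was lost without GSK690* replicate 1, RN-1 replicate 2 or GSK690 replicate 2 of Kasumi-1 (adjusted p 0.0522, 0.0512 and 0.0560). At 72 h 0 of the 41 passed by limma (3.47% of all genes), with 10 at an unadjusted p under 0.05. The changes were more negative in Kasumi-1 for 38 of the 41 at 24 h and 36 at 72 h, by medians of -0.15 and -0.16. Over all genes 51.9% and 49.6% were more negative there, with medians of -0.01 and 0.00. Apart from PCNA at 24 h, no single gene's change was shown to differ between the lines. Between 72 and 24 h limma called 0 of the 41 in Kasumi-1 (0.202% of all genes; 4 at an unadjusted p under 0.05) and 0 in SKNO-1 (0.0% of all genes; 1 at an unadjusted p under 0.05). The median of the 41 differences was 0.11 in Kasumi-1 and 0.07 in SKNO-1, which is toward smaller falls at 72 h. The names of the libraries at 24 and 72 h carry different prefixes, so time and library series cannot be told apart. In SKNO-1 at 72 h, DMSO replicate 1 and RN-1 replicate 1 carry the prefix of the Kasumi-1 libraries at 72 h. The other SKNO-1 libraries at 72 h carry another prefix. GSK690* against DMSO and RN-1 against GSK690 in that set, and the comparisons of lines at 72 h, are thus partly confounded with prefix.

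Other genes of the pathway came from lists beyond the 41. Of 16 further licensing and firing factors, 6, 5, 3 and 0 were lower in the order of the sets and 0 higher (medians -0.24, -0.17, -0.13 and -0.09). GMNN, the inhibitor of CDT1, changed by -0.65 in Kasumi-1 at 24 h, and CDC7, the kinase that fires origins, by -0.51 and -0.42 in Kasumi-1. Of 17 further fork factors, 13, 8, 2 and 1 were lower, led by TIPIN (-0.65) and WDHD1 (-0.61), which hold the fork together, in Kasumi-1 at 24 h, and by WDHD1 in SKNO-1 at 24 h (-0.41). Of 8 further nucleotide genes, 5, 0, 0 and 0 were lower, with DUT and DTYMK, which act on dUTP and dTMP, at -0.46 and -0.44 in Kasumi-1 at 24 h. Higher at the later time were RRM2B, the p53-induced reductase subunit, in Kasumi-1 (0.43), and SAMHD1, which breaks down deoxynucleotides, in SKNO-1 (0.25). Of 7 histone supply and chaperone genes, 5, 1, 1 and 0 were lower, with ASF1B at -0.34 in Kasumi-1 at 24 h.

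Regulators of S phase entry changed in both directions. Of 12 E2F and RB factors, 5, 2, 0 and 0 were lower and 1, 1, 0 and 1 higher in the order of the sets. E2F1, an activator of replication genes, had 16.1 ± 1.66 FPKM in the controls and 12.01 ± 1.02 FPKM with the inhibitors (SD, n = 4 each) in Kasumi-1 at 24 h (log2 change -0.39 ± 0.10 (SE; adjusted p = 0.00593)), with -0.14, -0.03 and -0.06 in the other sets, which did not pass. RB1, which holds E2F factors back, was the gene that rose, by 0.33 ± 0.09 (SE; adjusted p = 0.0119) and 0.52 ± 0.09 (SE; adjusted p = 1.57e-04) in Kasumi-1 at 24 and 72 h. It also rose by 0.34 ± 0.09 (SE; adjusted p = 0.0148) in SKNO-1 at 72 h, beside 0.23 in SKNO-1 at 24 h (not passed). E2F8, a repressor, fell in Kasumi-1 at 24 h (-0.33) and passed in no other set.

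Of 17 cyclins, kinases and inhibitors of G1 and S phase, 6, 7, 1 and 1 were lower and 1, 3, 0 and 0 higher. CCNA2, the S phase cyclin, changed by -0.62 ± 0.10 (SE; adjusted p = 1.31e-04) in Kasumi-1 at 24 h and by -0.40 ± 0.10 (SE; adjusted p = 0.00442) at 72 h, and by -0.28 and -0.20 in SKNO-1, which did not pass. CDC25A, the phosphatase that turns on CDK2, fell in every set (-0.58, -0.51, -0.27 and -0.26). CCNE2, the cyclin of S phase entry, fell in Kasumi-1 at 24 h (-0.35), with -0.14, -0.11 and 0.16 elsewhere. CDKN1B (p27), an inhibitor of CDK2, rose in Kasumi-1 at both times (0.24 and 0.47), and its changes of 0.12 and 0.10 in SKNO-1 did not pass. CDKN1A (p21) passed in none of the sets and was scarce in Kasumi-1, at 0.428 ± 0.0671 FPKM in the controls and 0.465 ± 0.203 FPKM with the inhibitors (SD, n = 4 each) at 24 h. MYC fell in Kasumi-1 at 72 h (-0.48 ± 0.10 (SE; adjusted p = 0.00130)), and its changes of -0.22, -0.20 and -0.30 elsewhere did not pass.

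Set beside 2 other growth programmes, the replication genes were not alone. Of 20 mitosis genes, 19, 10, 1 and 0 were lower (medians -0.44, -0.26, -0.15 and -0.06), with KIF23 and KIF20A, kinesins of cell division, at -0.54 and -0.54 in Kasumi-1 at 24 h. Of 18 ribosome biogenesis genes, 12, 9, 2 and 2 were lower (medians -0.27, -0.24, -0.14 and -0.16), with RRP12 and POLR1A at -0.56 and -0.56 in Kasumi-1 at 72 h. In SKNO-1 at 24 h 10 of 41 replication genes stood beside 1 of 20 mitosis genes, a difference between lists that was not tested. Markers of mature myeloid cells moved with these falls in the opposite direction. Of 10 monocyte and granulocyte markers 6 were tested, and 3 were higher and 0 lower in each set (medians 0.54, 0.77, 0.56 and 0.63), with LYZ, lysozyme, at 3.01 in Kasumi-1 at 24 h and ITGAM (CD11b) at 1.54 in SKNO-1 at 72 h. Their summed level was 324 to 369.9 FPKM in the controls and 462 to 546 with the inhibitors in Kasumi-1 at 24 h, 329 to 384 and 436 to 467 at 72 h, 142 to 169.9 and 217 to 278 in SKNO-1 at 24 h, and 133 to 202 and 234 to 328 at 72 h. FCGR3B stood at 0 in every library of Kasumi-1 and in the SKNO-1 controls, and CD14 at 0 in the controls of 3 sets. Their part in the change of the replication genes was not tested.

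Most of the 41 genes varied closely together. With each gene's log2 values centred within the 4 sets, the correlation of a gene with the mean of the other 40 over the 32 libraries was highest for FEN1 and ORC1 (Pearson r 0.961 and 0.959). It was lowest for POLD3 (-0.215), POLE (0.286), CDT1 (0.294), RFC2 (0.536), RPA1 (0.556), RFC1 (0.586), GINS4 (0.618), POLD1 (0.661) and RPA3 (0.698). These values describe libraries that share treatments and batches, and they carry no test. The centring left in the difference between inhibitors and controls, and the spread of r over all genes is not given here. Among 11821 genes outside the 41, the 10 whose centred values were most like the mean of the 41 were GMNN, BIRC5, UNG, CCNA2, SSRP1, NME1, PSMG1, TPX2, MPHOSPH6 and KIF2C, with r from 0.963 to 0.948 over the 32 libraries.

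In level, which FPKM gives per length, the genes spanned a wide range. Medians over the 32 libraries ran from 8.30 FPKM for GINS3 and 9.48 FPKM for GINS4 to 148 FPKM for MCM7 and 161 FPKM for TYMS. The 6 subunits of the helicase, which act in equal numbers, had medians of 64.6 (MCM2), 100.3 (MCM3), 109 (MCM4), 82.1 (MCM5), 58.9 (MCM6) and 148 FPKM (MCM7). For 13 of the 41 the annotated locus overlaps another gene of the table, among them MCM2 with TPRA1, MCM7 with AP4M1, GINS2 with GSE1, RFC4 with EIF4A2, FEN1 with TMEM258 and FADS2, and TYMS with ENOSF1. Whether the counting used strand is not given in the sources used here, so reads of such pairs cannot be told apart where their exons overlap.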

How the data were processed

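RNA sequencing libraries (32) of Kasumi-1 and SKNO-1 cells were read as the authors' deposited table of FPKM per gene. TopHat 1.4.1, Cufflinks and the hg19 genome are named per the submitters' processing notes, with no role or order; the annotation release is not given in the sources used here. Depth per library is unknown, since no read counts were used here, and no counting intervals are given. Samples were grouped by the titles in the labels.

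The filter kept 11890 of 23073 genes, those reaching 1 FPKM in 2 or more libraries. No value is given for 102 cells of 30 genes, none of them a replication gene, and these were left missing. Values were taken as log2(FPKM + 1), which understates the change of low genes, and tested in R 4.3.3 by limma 3.58.1. The model had 16 group means and let the variance follow the mean level (16 residual and 5.23 prior degrees of freedom). Tests were 2-sided, with limma's p-values adjusted per contrast over all tested genes (Benjamini-Hochberg) and a threshold of 0.05. The p-values measure the spread between libraries that the labels call biological replicates. The fit was tested on simulated data, in which few genes of 1 set were changed and the noise was independent between libraries. In the order of the sets it recovered 66, 70, 53 and 62% of genes given a log2 change of 0.4. It recovered 97, 99, 99 and 100% of those given 0.8, and smaller changes were not simulated. Of 172, 175, 157 and 169 calls in that order, 9, 6, 5 and 7 were false. Many more genes were called in the real data, and same-numbered libraries there shared deviations. The percentages are therefore not the power of the tests in these data. Tables used pandas 2.3.3 and numpy 2.4.6 under Python 3.11.15, and plots matplotlib 3.10.9.

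The 41 genes, their roles, the other gene lists and the tests were chosen with earlier results of these data known. All 41 genes could be named. Values in every library are given for the 3 most changed of those that passed in each set and for MCM2, PCNA, CDC6, RRM2 and POLA1. From each further list up to 2 genes that passed in a set could be named, with E2F1, E2F8, RB1, CDKN1A, CDKN1B, CCNE2, CCNA2 and MYC, and from the other contrasts up to 4 genes that passed. Others named were chosen after their values were seen. Symbols in the lists that did not match 1 gene of the table (CHTF8, UHRF1, RBL1 and PECAM1) were left out, and RFC2 was read at its locus on the primary chromosomes. The alternatives were no filter, a pseudocount of 0.1, median of ratios scaling, quantile normalization, no variance trend, fits on the 8 libraries of a set as 4 or as 2 groups, a replicate block, a library name prefix term, controls without GSK690*, and each library left out in turn.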

Additional observations from a re-analysis of the deposited data

Results flagged for a closer look

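PCNA is the result that differed between the cell lines by the test of the difference itself. Its log2 change with the inhibitors at 24 h differed by -0.434 (Kasumi-1 minus SKNO-1; limma adjusted p = 0.0137, n = 8 libraries a line), from -0.58 in Kasumi-1 and -0.14 in SKNO-1. The difference ran from -0.386 to -0.483 in fits without 1 library, and the call was lost in 3 of those fits, each without a Kasumi-1 library. RRM2 and TYMS had larger differences at 24 h (-0.489 ± 0.153 and -0.457 ± 0.137, SE) than PCNA, whose SE was 0.089. They did not pass (limma adjusted p = 0.161 and 0.135).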

How the results depend on the processing

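The negative direction of the medians held throughout, but counts in SKNO-1 and in comparisons of 2 with 2 libraries moved with the setting, and the cause was not tested. The count of genes lower in Kasumi-1 stayed within 1.5 times of 30 and 28 under every alternative, and that of line differences likewise. For the alternative fits the share of all genes called is not given here. A count that rose or fell with the setting, as with the replicate block, can therefore not be read as particular to the replication genes.

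A replicate block, which fits the replicate number within each set, raised most counts. Samples share only a number, and the deviations of same-numbered libraries had a median r of 0.30 to 0.38. With the replicate block the genes lower numbered 25 in SKNO-1 at 24 h (10 without it) and 14 at 72 h (1). In either direction, RN-1 against DMSO gave 17 at 72 h in Kasumi-1 (4), and 14 and 2 in SKNO-1 at 24 and 72 h (1 and 1). GSK690 against GSK690* gave 27 and 28 in Kasumi-1 (15 and 14), and 4 and 1 in SKNO-1 (0 and 0). The difference between times gave 2 in Kasumi-1 (0), and that between lines 7 at 24 h (1) and 5 at 72 h (0).

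Fitted on the 8 libraries of a set alone, limma called 0 genes lower in SKNO-1 at 24 h and at 72 h and 0 higher at 72 h, 0 with RN-1 in SKNO-1 at either time, and 5 with GSK690 in Kasumi-1 at 24 h. As 2 groups of 4, SKNO-1 at 24 h had 5 lower. Without GSK690* among the controls it had 3, and SKNO-1 at 72 h had 2. A term for the prefix of library names gave 3 lower in SKNO-1 at 72 h. For RN-1 the count at 72 h in Kasumi-1 was 9 with quantile normalization, that at 24 h in SKNO-1 was 0 with no filter, quantile normalization, median ratios or no trend, and that at 72 h was 0 with a pseudocount of 0.1. Quantile normalization called 1 difference between lines at 72 h.

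Without 1 library the genes lower ranged from 0 to 11 in SKNO-1 at 24 h and from 0 to 7 at 72 h. RN-1 against DMSO ranged from 3 to 25 and from 0 to 4 in Kasumi-1 at 24 and 72 h, and from 0 to 2 and from 0 to 1 in SKNO-1. GSK690 against GSK690* ranged from 1 to 13 and from 1 to 16 in Kasumi-1, and from 0 to 1 at both times in SKNO-1. The difference between lines at 24 h ranged from 0 to 2. RRM2 turned sign in SKNO-1, with log2 changes from -0.176 to 0.0114 at 24 h and from -0.0525 to 0.1296 at 72 h.

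For the named genes, 266 of the values under other settings kept direction and side of the threshold, 13 lost and 4 gained a call, and among fits without 1 library 222 kept both, 29 lost and 2 gained a call and 3 turned sign. Depth is unknown, so its limit on the low genes cannot be given.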

Other observations

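Replication genes stood higher in the later controls. The mean FPKM of the 4 control libraries was higher at 72 h than at 24 h for 41 of the 41 genes in Kasumi-1 and for 36 in SKNO-1, by a median ratio of 1.20 and 1.23. All 4 controls at 72 h lay above all 4 at 24 h for 25 genes in Kasumi-1 and 22 in SKNO-1. The same counts over all genes are not given here, so the rise cannot be read as particular to the replication genes. CDT1, the licensing factor, had the highest ratio in both lines, at 20.2 ± 3.38 and 34.9 ± 3.63 FPKM (SD, n = 4 each) at 24 and 72 h in Kasumi-1 and at 35.4 ± 5.02 and 63.8 ± 14.97 FPKM in SKNO-1. ORC6 in SKNO-1 went the other way, at 37.2 ± 1.65 FPKM at 24 h and 31.1 ± 2.57 FPKM at 72 h. No test was made, since time and the series of library names cannot be told apart.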
